A study of Mus musculus with 8 samples.

Results

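The genes described here are 42 genes of S phase and DNA replication, taken by name from origin licensing, the replisome, nucleotide supply and the E2F and cyclin E step. All 42 were found under 1 Ensembl identifier each among the 49315 genes listed, and all 42 passed the filter on low counts that left 17163 genes. They were compared between whole wild-type hearts (WT, 4 libraries) and whole hearts of embryos homozygous for Tbx20EH1Mut (MT, 4 libraries), all collected at embryonic day 9.5. Tbx20 is a T-box transcription factor of the developing heart, and Tbx20EH1Mut changes a pair of neighbouring amino acids in its engrailed homology domain, the stretch that binds the TLE corepressors. The allele is constitutive, so every tissue of the embryo carries it, and the mice were backcrossed to C57BL/6J. Each library is a pool of 3 hearts, so the spread between libraries is a spread between pools.

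Before S phase, the origin recognition complex, Cdc6 and Cdt1 load the Mcm2-7 helicase onto replication origins. Cyclin E with its kinase then starts S phase, Cdc45 and the GINS complex join the helicase, and polymerases copy the DNA on a clamp of Pcna while ribonucleotide reductase and thymidylate enzymes supply deoxynucleotides. Most of these genes are transcribed in late G1 by E2F factors and are low in resting cells, and some cardiomyocytes are dividing at this stage. In RNA from whole hearts, fewer cells in S phase and less message per cell cannot be told apart.

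The libraries held 33359322 to 49523086 counts, and the totals did not differ between genotypes beyond their spread (exact two-sided permutation test, p = 0.143, n = 4 per genotype, smallest possible p 0.0286). *Tbx20*, whose message the substitution does not remove, was 353, 366, 379.6 and 372 CPM in WT 1 to WT 4 and 215, 247, 289 and 317 CPM in MT 1 to MT 4 (log2 fold change -0.46, SE 0.13, adjusted p = 0.0273), a call lost in 4 of 8 fits without a single library. Its level therefore does not check the genotype labels. The heart markers were present in both genotypes: the 10 cardiomyocyte genes summed to 33060 to 37100 CPM in WT and 28980 to 40130 CPM in MT, where CPM is the count scaled to a library of 1000000 after TMM scaling of the libraries. Of these 10, *Myh6* fell (-1.26, log2 fold change) and none rose. The libraries, WT 2 most of all, differed in how levels followed exon length, with values given below.

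The RefSeq promoters of 6 members are printed first because they show what the members share outside the counts, and what they do not. RefSeq (GRCm38.p6) gave start sites for 36 of the 42 members; *Mcm4*, *Gins1*, *Gins2*, *Rfc2*, *Pole* and *Ccne2* had no entry. Each line gives the 200 bases before the start site, 5′ to 3′ on the strand of the gene. Capitals mark the E2F letters TTTGGCGC, TTTCGCGC, TTTCCCGC or TTTGCCGC and the CCAAT box, on either strand, so a match on the other strand reads as its reverse complement. *Rrm2* and *Ccne1* are shown as the members with the largest differences between genotypes, *Cdc6*, *Mcm5* and *Gins3* as members that fell and hold E2F letters, and *Mcm6* as the member with the most E2F matches, which was not called.
Rrm2, chr12:24708054-24708253, plus strand: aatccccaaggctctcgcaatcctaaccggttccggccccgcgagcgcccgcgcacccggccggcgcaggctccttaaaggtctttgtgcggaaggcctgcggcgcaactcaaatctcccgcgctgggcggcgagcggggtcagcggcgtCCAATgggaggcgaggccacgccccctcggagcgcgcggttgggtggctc
Ccne1, chr7:38107491-38107690, minus strand: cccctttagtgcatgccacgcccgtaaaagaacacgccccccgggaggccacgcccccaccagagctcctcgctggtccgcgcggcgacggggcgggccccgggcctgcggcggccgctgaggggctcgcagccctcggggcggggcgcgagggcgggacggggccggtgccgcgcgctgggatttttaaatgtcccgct
Cdc6, chr11:98907951-98908150, plus strand: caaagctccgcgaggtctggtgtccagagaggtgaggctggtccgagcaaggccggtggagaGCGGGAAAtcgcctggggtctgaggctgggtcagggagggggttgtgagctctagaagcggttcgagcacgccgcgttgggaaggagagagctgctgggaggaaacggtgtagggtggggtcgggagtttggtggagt
Mcm5, chr8:75109309-75109508, plus strand: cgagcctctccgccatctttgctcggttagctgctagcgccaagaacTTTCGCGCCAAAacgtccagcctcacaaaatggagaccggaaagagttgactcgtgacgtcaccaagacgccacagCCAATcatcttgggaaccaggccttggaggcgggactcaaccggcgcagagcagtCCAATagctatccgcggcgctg
Gins3, chr8:95633359-95633558, plus strand: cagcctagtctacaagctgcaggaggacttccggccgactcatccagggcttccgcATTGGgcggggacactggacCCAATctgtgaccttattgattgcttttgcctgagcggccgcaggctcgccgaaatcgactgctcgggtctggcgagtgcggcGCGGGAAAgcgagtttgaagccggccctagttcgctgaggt
Mcm6, chr1:128359706-128359905, minus strand: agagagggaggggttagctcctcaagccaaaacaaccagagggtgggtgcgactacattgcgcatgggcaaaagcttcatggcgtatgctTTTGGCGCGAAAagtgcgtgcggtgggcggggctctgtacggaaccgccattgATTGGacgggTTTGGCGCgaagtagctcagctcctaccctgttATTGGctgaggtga

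In the windows from 250 bases before to 50 bases after the start site, at least 1 of the 4 E2F words stood in 14 of 36 members (38.9%), against 2.6% of all 27025 genes in the promoter table and 4.57% of the 11767 tested genes found there. *Mcm6* held 3 matches and *Mcm3*, *Mcm5*, *Mcm7* and *Rfc3* held 2 in a window, and some of these matches overlap, as in the *Mcm5* and *Mcm6* lines above. CCAAT, the letters of the NF-Y box, stood in 22 of 36 members (61.1%), in 41.1% of all genes and in 42.4% of the tested genes. The letters TTTGAA of the cell cycle homology region stood in 5 of 36 members (13.9%), in 20.2% of all genes and in 14.1% of the tested genes, a share like that of the members. E2F words were found in 5 of the 19 members that fell (26.3%) and in 9 of the 17 that were not called (52.9%). CCAAT stood in 11 of the 19 (57.9%) and in 11 of the 17 (64.7%). TTTGAA stood in 4 of the 19 (21.1%) and in 1 of the 17 (5.88%). Of all tested genes called lower, 5.01% held E2F words, 44.7% CCAAT and 15.0% TTTGAA. The median log2 fold change was -0.46 for the 14 members with E2F letters and -0.51 for the 22 without. It was -0.55 with and -0.47 without CCAAT, and -0.69 for the 5 members with TTTGAA and -0.47 for the 31 without. None of these splits was tested. *Rrm2* and *Ccne1*, with the largest called differences, held no E2F word in the window, and *Rrm2* held 1 CCAAT. These are exact letter matches, which neither show binding nor, where absent, its lack.

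In MT hearts the replication genes were lower in part: 19 of the 42 were called lower at an adjusted p of at most 0.05 and none was called higher, while 15.3% of all 17163 tested genes were called lower and 14.0% were called higher. Without adjustment, 29 members had p below 0.05 on the lower side and 0 on the higher side, against 22.0% and 21.1% of all genes, and DESeq2 and limma-voom also called 0 higher. The median log2 fold change of the members was -0.47, corresponding to 72.4% of the WT level, against 0.005 for all genes tested. Of the 42, 38 had a negative log2 fold change. Levels below are given per library or as the mean ± SD of the 4 libraries of a genotype, and SE is the standard error of the log2 fold change. With the additional requirement of a log2 fold change of -0.5 or less, 15 members were called, against 12.1% of all genes. For 20 members every MT library was below every WT library, an arrangement found for 15.7% of all genes tested. The largest differences, on the log2 scale, were in *Rrm2* (-1.16), *Ccne1* (-1.03) and *Fen1* (-0.996), and the differences of *Lig1*, *Orc6*, *Rfc4* and *Dut* lay between 0.01 and 0.12.

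**Figure D1:**
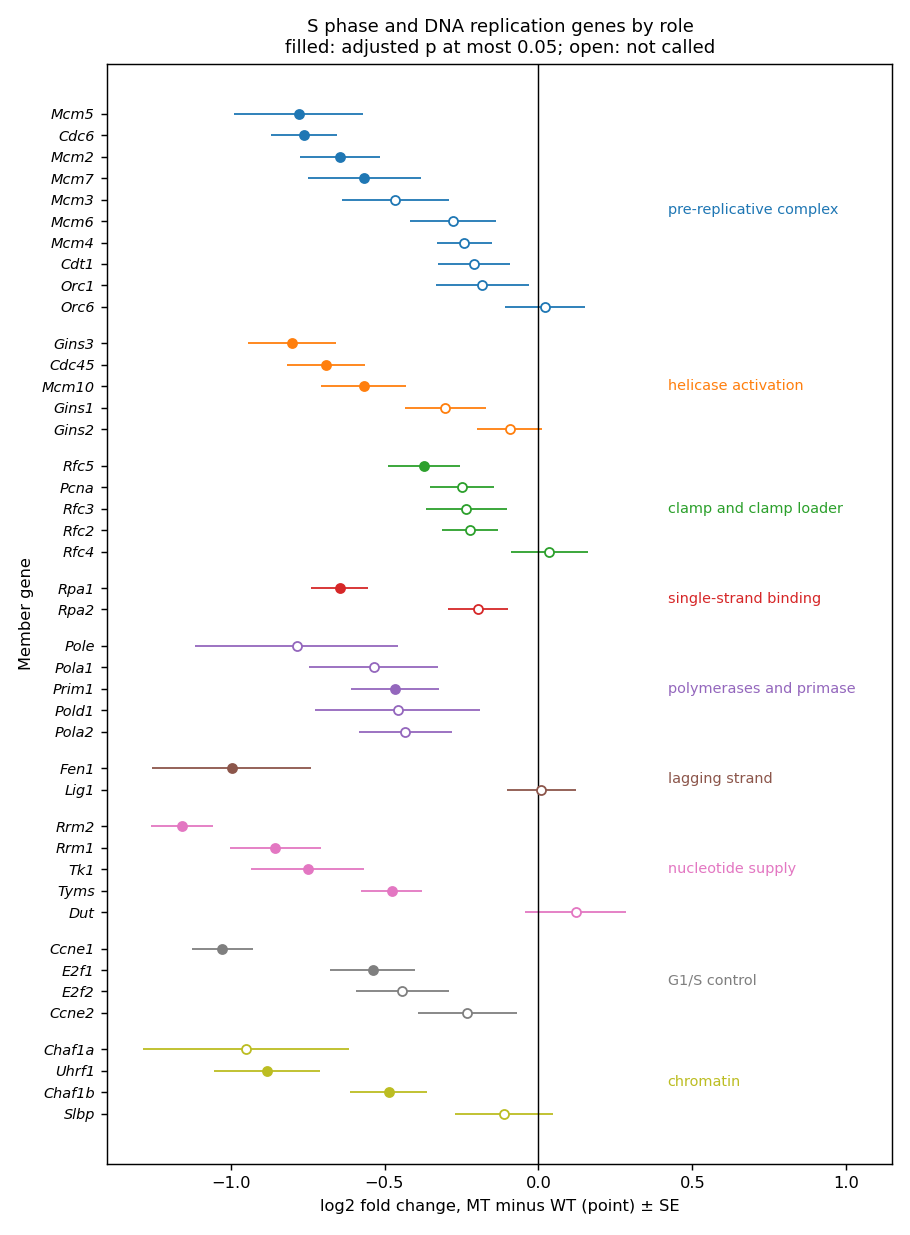
The horizontal axis is the log2 fold change (MT minus WT) with its SE for each of the 42 members, grouped and coloured by role. Filled points are the 19 members with an adjusted p of at most 0.05, all left of 0, and the 4 members right of 0 are open.

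The genes that supply deoxynucleotides had the largest share of called members in the main fit, 4 of 5, with -0.75 as the median log2 fold change. The share was level with that of the helicase activation genes in other fits. Without MT 4, *Tk1* lost its call (adjusted p = 0.0509), and with the trend on exon length removed, *Gins1* gained it (adjusted p = 0.00846). *Rrm2*, the regulated small subunit of ribonucleotide reductase, which makes deoxynucleotides from ribonucleotides, was 252, 251, 276 and 264 CPM in WT 1 to WT 4 and 118, 129, 111 and 110.0 CPM in MT 1 to MT 4. The highest MT library, at 129 CPM, stood far below the lowest WT library, at 251 CPM (log2 fold change -1.16, SE 0.10, adjusted p = 9.35e-05), and the fitted level in MT was 44.8% of WT. *Rrm1*, the large subunit, fell, with 256 ± 33.2 CPM in WT and 141 ± 22.7 CPM in MT (log2 fold change -0.85, SE 0.15, adjusted p = 0.00302). The thymidine kinase *Tk1*, which salvages thymidine, was 56.1 ± 3.61 CPM in WT and 33.3 ± 9.11 CPM in MT and fell (log2 fold change -0.75, SE 0.18, adjusted p = 0.0143). *Tyms*, the thymidylate synthase, fell less, with 59.9 ± 2.63 CPM in WT and 43.0 ± 3.76 CPM in MT (log2 fold change -0.48, SE 0.10, adjusted p = 0.00725). The exception was *Dut*, the enzyme that removes dUTP, with 204, 116, 163 and 145 CPM in WT 1 to WT 4 and 173, 164, 191 and 155 CPM in MT 1 to MT 4. *Dut* overlapped fully between the genotypes, and its highest and lowest libraries were both WT (log2 fold change 0.12, SE 0.16, adjusted p = 0.602). Per kilobase of annotated exon, a length that can exceed that of the message, *Pcna* had the highest mean level of the 42 members in both genotypes. *Rrm2* was second in WT with 94.2 CPM per kilobase against 65.2 for *Dut*, whereas in MT *Dut*, at 70.9 CPM per kilobase, stood above *Rrm2* at 42.2.

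Among the genes of the G1/S switch, 2 of 4 were called lower. *Ccne1*, the E1 form of the cyclin that activates Cdk2 at S phase entry, was 71.4, 71.1, 77.9 and 74.6 CPM in WT 1 to WT 4 and 33.5, 39.5, 37.7 and 34.0 CPM in MT 1 to MT 4. The genotypes did not overlap (log2 fold change -1.03, SE 0.10, adjusted p = 0.000161), and the fitted level in MT was 49.1% of WT. The second cyclin E gene, *Ccne2*, was 74.6, 54.6, 69.8 and 58.9 CPM in WT 1 to WT 4 and 42.4, 55.8, 69.0 and 52.7 CPM in MT 1 to MT 4. Here MT 2 and MT 3 stood above WT 2, and the difference was not called (log2 fold change -0.23, SE 0.16, adjusted p = 0.295), except with the GC content correction, where the log2 fold change was -0.45 (adjusted p = 0.0447). *E2f1*, an activating E2F factor, fell, with 44.4 ± 3.50 CPM in WT and 30.6 ± 5.25 CPM in MT (log2 fold change -0.54, SE 0.14, adjusted p = 0.0176). Its relative *E2f2* had the lowest level per length of all members in both genotypes, was lower in every MT library than in any WT library, and missed the threshold narrowly (log2 fold change -0.44, SE 0.15, adjusted p = 0.0501).

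The log2 ratio of *Ccne1* to *Ccne2* was 0.20 ± 0.20 in WT and -0.58 ± 0.23 in MT (SD, n = 4). Ratios within a library do not depend on its scaling, but trends on length or GC content in a library can still enter them. *Rpa1* has 5578 exon bases against 2993 for *Rpa2*, and GC content is 52.7% in *Ccne1* and 36.3% in *Ccne2*. The part of such trends in the ratios was not tested. Of 6 pairs of partner genes compared, chosen with the gene values known, the *Ccne1*/*Ccne2* and *Rpa1*/*Rpa2* ratios did not overlap between genotypes (exact two-sided permutation test, p = 0.0286 each, the smallest the design allows, 0.0858 after Benjamini-Hochberg adjustment over the 6 pairs). Neither passes after adjustment. The *Rrm2*/*Rrm1* log2 ratio was 0.04 ± 0.18 in WT and -0.26 ± 0.15 in MT (exact permutation p = 0.0571, adjusted 0.114). For *Chaf1a*/*Chaf1b*, *Pola1*/*Pola2* and *E2f1*/*E2f2* the differences in mean log2 ratio were -0.48, -0.09 and -0.11, with exact permutation p of 0.2, 0.371 and 0.6.

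**Figure D2:**
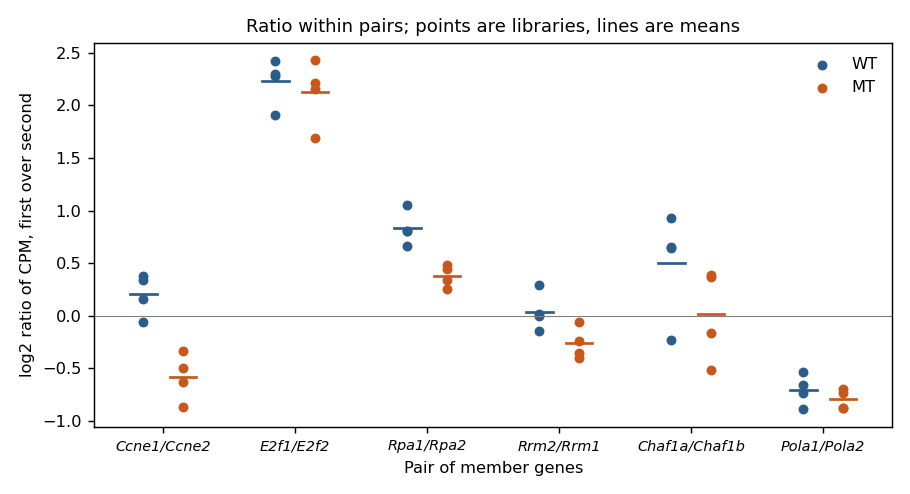
The vertical axis is the log2 ratio of CPM of the first gene to the second in each library, for 6 pairs of members on the horizontal axis, with WT in blue, MT in orange and lines at the means. The 4 MT points of *Ccne1*/*Ccne2* and of *Rpa1*/*Rpa2* lie below all WT points, and those of the other pairs overlap.

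Of the 10 genes of the pre-replicative complex, 4 were called lower and the median log2 fold change was -0.37. *Mcm5*, a subunit of the replicative helicase, had the most negative value in this group, with 131, 214, 170.2 and 170.3 CPM in WT 1 to WT 4 and 125, 119.5, 69.5 and 85.3 CPM in MT 1 to MT 4. The genotypes did not overlap, but MT 1 and WT 1 were only a few CPM apart, and MT 3 and MT 4 were well below MT 1 and MT 2 (log2 fold change -0.78, SE 0.21, adjusted p = 0.0207). *Mcm2* (log2 fold change -0.65, SE 0.13, adjusted p = 0.00597) and *Mcm7* (log2 fold change -0.57, SE 0.18, adjusted p = 0.042) also fell, and for *Mcm7* the range of MT overlapped that of WT and the call was lost with upper-quartile scaling (adjusted p = 0.0661) and by library size only (0.0557). *Mcm3* (log2 fold change -0.47, SE 0.17, adjusted p = 0.0683), *Mcm4* (log2 fold change -0.24, SE 0.09, adjusted p = 0.0672) and *Mcm6* (log2 fold change -0.28, SE 0.14, adjusted p = 0.153) were not called, although all 4 *Mcm4* values in MT lay below those in WT. The licensing factor *Cdc6*, which loads the helicase, fell with little spread between libraries, at 48.2 ± 4.47 CPM in WT and 28.4 ± 2.005 CPM in MT (log2 fold change -0.76, SE 0.11, adjusted p = 0.0012). Its partner *Cdt1* had a log2 fold change of -0.21 (adjusted p = 0.197) and *Orc1*, the large subunit of the origin recognition complex, -0.18 (adjusted p = 0.378). *Orc6*, the smallest subunit, was 98.0, 65.8, 78.9 and 75.8 CPM in WT 1 to WT 4 and 79.0, 75.0, 88.5 and 80.8 CPM in MT 1 to MT 4. WT 1 and WT 2 were its highest and lowest libraries, and the genotypes overlapped (log2 fold change 0.02, SE 0.13, adjusted p = 0.912).

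The 6 subunits Mcm2 to Mcm7 form a ring in equal numbers, and their messages were set side by side per kilobase of annotated exon. That length can exceed the length of the message, so the order of the subunits depends on annotation as well as on level. Before division by length, mean CPM was highest for *Mcm2* in WT (212 CPM) and for *Mcm6* in MT (155 CPM). In WT the mean CPM per kilobase ranged from 30.5 for *Mcm2* to 49.3 for *Mcm3*. In MT it ranged from 19.5 for *Mcm2* to 38.2 for *Mcm4*. The ratio of the highest to the lowest subunit in a library was 1.75, 1.61, 1.73 and 1.66 in WT 1 to WT 4 and 2.13, 1.9, 2.3 and 2.04 in MT 1 to MT 4. The ratio was thus higher in each MT library than in any WT library. The other complexes examined showed the same order. For *Gins1* to *Gins3* the ratio was 2.6 to 3.85 in WT and 4.17 to 5.74 in MT. For *Rfc2* to *Rfc5* it was 2.35 to 3.02 in WT and 3.13 to 4.34 in MT. *Mcm2* is the longest of the 6 *Mcm* genes, with 6956 exon bases, and *Mcm4* the shortest, with 3589. In each complex the lowest ratio was in WT 2 and the highest in MT 3. These are the libraries in which short genes stood lowest (-0.31) and highest (0.20) against the mean of the 8 libraries, as described below. The part of this length trend in the ratios was not tested. These comparisons were made after the values were seen and are given without a test.

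Of the 5 genes that turn the loaded ring into a moving helicase, 3 fell. *Gins3*, 1 of the subunits of the GINS tetramer, was 18.6, 18.6, 17.1 and 18.3 CPM in WT 1 to WT 4 and 12.0, 11.8, 8.56 and 9.20 CPM in MT 1 to MT 4. The WT libraries were nearly level and all MT libraries were well below them (log2 fold change -0.80, SE 0.14, adjusted p = 0.00364). *Cdc45*, which binds GINS and the ring, fell, with 50.1 ± 4.92 CPM in WT and 31.1 ± 4.08 CPM in MT (log2 fold change -0.69, SE 0.13, adjusted p = 0.00389), and *Mcm10*, an initiation factor, fell as well (log2 fold change -0.57, SE 0.14, adjusted p = 0.0138). *Gins1* had a log2 fold change of -0.30 (adjusted p = 0.104) and was not called, but with the trend on exon length removed it was -0.48 (adjusted p = 0.00846). *Gins2* was 61.5, 49.8, 54.0 and 52.3 CPM in WT 1 to WT 4 and 53.7, 52.5, 51.9 and 45.7 CPM in MT 1 to MT 4, with overlapping genotypes (log2 fold change -0.09, SE 0.10, adjusted p = 0.522). Of the annotated exon bases of *Gins2*, 67.3% are shared with *Gse1* on the other strand, and the strand setting of the counting is not given in the sources used here, so reads of the pair may not be separated.

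The sliding clamp and its loader showed small differences, with 1 of 5 called and -0.23 as the median log2 fold change. *Rfc5*, a loader subunit, was 55.6, 65.1, 65.0 and 65.7 CPM in WT 1 to WT 4 and 53.9, 54.0, 42.5 and 44.1 CPM in MT 1 to MT 4. MT was below WT in all libraries, with MT 1 and MT 2 close to WT 1 (log2 fold change -0.37, SE 0.12, adjusted p = 0.0391). The call was lost with upper-quartile scaling (adjusted p = 0.086), by library size only (0.0541) and with no filter (0.058). *Pcna*, the clamp itself, was 261 ± 16.1 CPM in WT and 219.8 ± 14.4 CPM in MT, a difference that was not called (log2 fold change -0.25, SE 0.10, adjusted p = 0.0915). With the trend on exon length removed it was called (log2 fold change -0.36, adjusted p = 0.0288). *Rfc2* (-0.22, adjusted p = 0.0908) and *Rfc3* (-0.23, adjusted p = 0.206) had log2 fold changes of similar size and were not called. *Rfc4*, another loader subunit, was 55.2, 43.1, 59.9 and 57.1 CPM in WT 1 to WT 4 and 55.5, 55.5, 60.5 and 48.9 CPM in MT 1 to MT 4. Its genotypes overlapped, with the lowest library in WT (log2 fold change 0.03, SE 0.12, adjusted p = 0.857), and 12.6% of its exon bases are shared with the abundant *Eif4a2*.

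Replication protein A coats single-stranded DNA, and 1 of the 2 subunits listed was called lower. *Rpa1*, the large subunit, was 141, 153, 149 and 152 CPM in WT 1 to WT 4 and 97.3, 100.3, 91.6 and 90.6 CPM in MT 1 to MT 4. The groups were far apart relative to their spread (log2 fold change -0.65, SE 0.09, adjusted p = 0.00126), and the fitted MT level was 63.9% of WT. *Rpa2*, the middle subunit, was 89.1, 73.8, 85.1 and 86.6 CPM in WT 1 to WT 4 and 71.5, 71.9, 77.0 and 71.7 CPM in MT 1 to MT 4, with MT 3 above WT 2 (log2 fold change -0.20, SE 0.10, adjusted p = 0.151).

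All 5 polymerase and primase genes had log2 fold changes between -0.79 and -0.43, and 1 of them was called. *Prim1*, the catalytic primase subunit, fell, with 53.8 ± 2.65 CPM in WT and 38.9 ± 7.79 CPM in MT (log2 fold change -0.47, SE 0.14, adjusted p = 0.0357), a call lost with upper-quartile scaling (adjusted p = 0.0762) and by library size only (0.0536). *Pole*, the catalytic subunit of the leading-strand polymerase, had the most negative value of the 5 and a wide spread, with 19.4, 56.2, 26.6 and 28.8 CPM in WT 1 to WT 4 and 27.4, 19.5, 12.2 and 16.9 CPM in MT 1 to MT 4. WT 2 stood far above the next library and WT 1 lay among the MT libraries (log2 fold change -0.79, SE 0.33, adjusted p = 0.0959). Without WT 2 the log2 fold change of *Pole* was -0.38 (adjusted p = 0.298), so its place as the most negative rests on that library. The polymerase alpha subunits *Pola1* (log2 fold change -0.53, SE 0.21, adjusted p = 0.078) and *Pola2* (log2 fold change -0.43, SE 0.15, adjusted p = 0.0539) and the delta catalytic subunit *Pold1* (log2 fold change -0.46, SE 0.27, adjusted p = 0.217) were not called. In the 8 fits without a single library, *Pold1* ranged from -0.66 to -0.27, with the highest adjusted p, 0.459, without WT 2. *Pola2* was 37.5, 57.5, 51.1 and 50.3 CPM in WT 1 to WT 4 and 40.6, 40.7, 31.8 and 32.5 CPM in MT 1 to MT 4, so that its highest MT libraries stood above WT 1.

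Of the pair of lagging-strand genes, 1 was called lower. *Fen1*, the nuclease that trims the flaps of Okazaki fragments, was 6.19, 15.2, 12.6 and 11.3 CPM in WT 1 to WT 4 and 5.62, 5.95, 6.66 and 4.51 CPM in MT 1 to MT 4. WT 1 lay inside the MT range while the other WT libraries were far above it (log2 fold change -0.996, SE 0.26, adjusted p = 0.018). This gene had 2923 counts in the 8 libraries together, and 78.8% of its exon bases are shared with *Gm10143* on the other strand, which had 199 counts. A further overlap on the other strand, 5.37% of its exon bases, is with *Tmem258*, which had 36889 counts, and with the strand setting unknown, reads of these genes may not be separated. Besides *Gins2* and *Rfc4*, more than 10% of the exon bases are common to a neighbour on the other strand in *Chaf1a* (18.7%, *Ubxn6*), *Ccne2* (17.4%, *Ints8*), *Rfc2* (15.1%, *Lat2*), *Orc1* (10.8%, *Gm12743*) and *Rfc5* (10.7%, *Wsb2*). *Lig1*, the ligase that seals the fragments, was 155, 149.8, 133 and 139 CPM in WT 1 to WT 4 and 163, 129, 152 and 135 CPM in MT 1 to MT 4, with the genotypes fully mixed (log2 fold change 0.01, SE 0.11, adjusted p = 0.961).

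Of the 4 genes of replication-coupled chromatin, 2 fell. *Chaf1a*, the large subunit of the chromatin assembly factor that places histones on new DNA, was 30.9, 79.5, 60.7 and 59.7 CPM in WT 1 to WT 4 and 41.6, 38.6, 15.8 and 23.4 CPM in MT 1 to MT 4. WT 1 was again far below the other WT libraries and inside the MT range, and the difference missed the threshold (log2 fold change -0.95, SE 0.34, adjusted p = 0.0558). Its partner *Chaf1b* fell, with 38.8 ± 2.31 CPM in WT and 27.7 ± 4.10 CPM in MT (log2 fold change -0.49, SE 0.13, adjusted p = 0.0177). *Uhrf1*, which brings the maintenance methyltransferase to newly copied DNA, fell further, with 160.2 ± 35.4 CPM in WT and 87.0 ± 13.4 CPM in MT (log2 fold change -0.88, SE 0.17, adjusted p = 0.00519). *Slbp*, the histone stem-loop binding protein, was 66.1, 68.1, 71.8 and 68.3 CPM in WT 1 to WT 4 and 69.6, 77.0, 43.5 and 63.7 CPM in MT 1 to MT 4. MT 3 stood far below all other libraries and MT 2 was the highest of the 8 (log2 fold change -0.11, SE 0.16, adjusted p = 0.618).

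**Figure D3:**
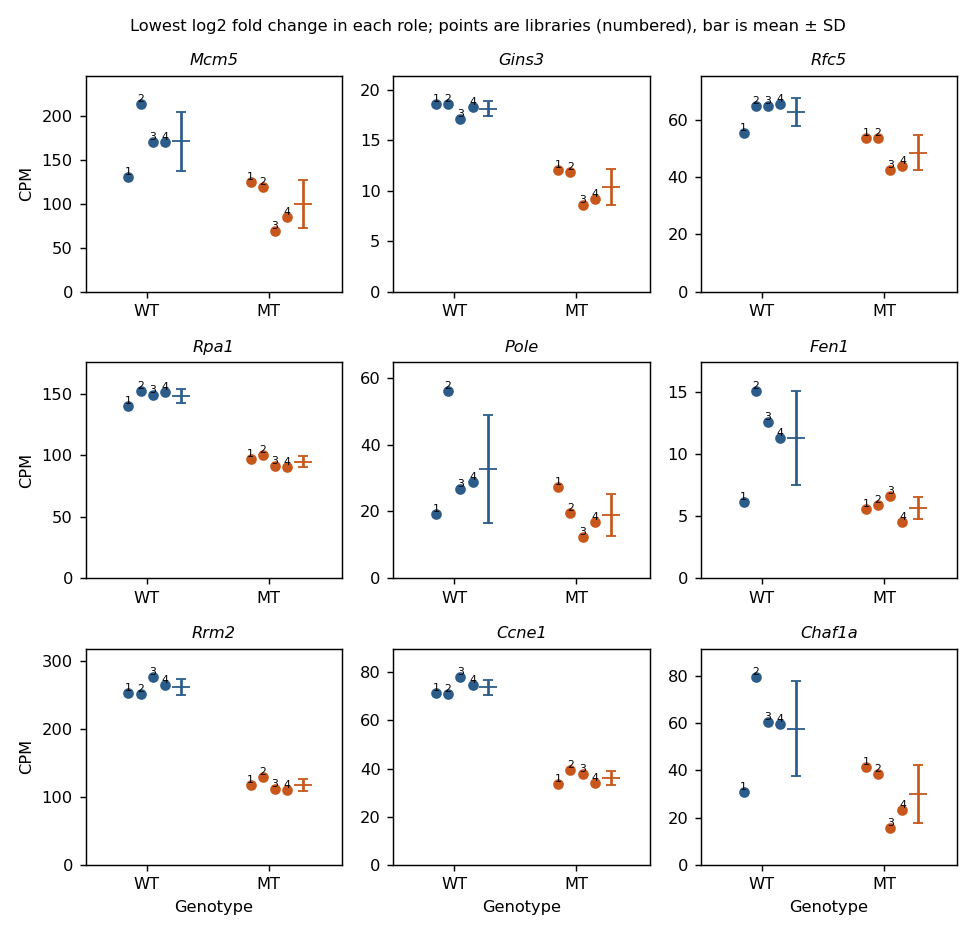
Each panel plots CPM in the 8 libraries for the member with the most negative log2 fold change of its role, with the replicate number above each point and the mean ± SD beside it, on axes that start at 0. *Rrm2*, *Ccne1*, *Rpa1* and *Gins3* are tight and separate, whereas WT 1 lies within or next to the MT range for *Mcm5*, *Rfc5*, *Pole*, *Fen1* and *Chaf1a*.

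The libraries of a genotype were not alike across the members. The median over the 42 members of the log2 ratio to the WT mean was -0.08, 0.04, 0.02 and 0.01 in WT 1 to WT 4. In MT 1 to MT 4 it was -0.27, -0.30, -0.69 and -0.57. MT 3 and MT 4 were thus lower than MT 1 and MT 2, and every MT library was below every WT library. MT 3 was the lowest of the 8 libraries for 22 members and MT 4 for 12, and WT 1 was the lowest WT library for 23 members. WT 2 was the highest of the 8 libraries for 20 members and the lowest for 3. The summed level of the members was 3699 to 4252 CPM in WT and 2674 to 3182 CPM in MT. Without MT 4, 11 members were called lower (8.53% of all genes), and without WT 1, 24 were (19.0% of all genes). Of the 19, 11 were called whichever single library was left out: *Cdc6*, *Mcm2*, *Mcm10*, *Cdc45*, *Gins3*, *Rpa1*, *Rrm1*, *Rrm2*, *Tyms*, *Ccne1* and *Uhrf1*. The other 8 each lost the call in at least 1 such fit. *Mcm7* was called in 2 of the 8 fits, *Rfc5* and *Prim1* in 3, *Mcm5* and *E2f1* in 5, *Fen1* in 6, and *Tk1* and *Chaf1b* in 7. The fit without MT 4 gave the highest adjusted p for all 8 of these members, between 0.0509 for *Tk1* and 0.118 for *Mcm7*.

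**Figure D4:**
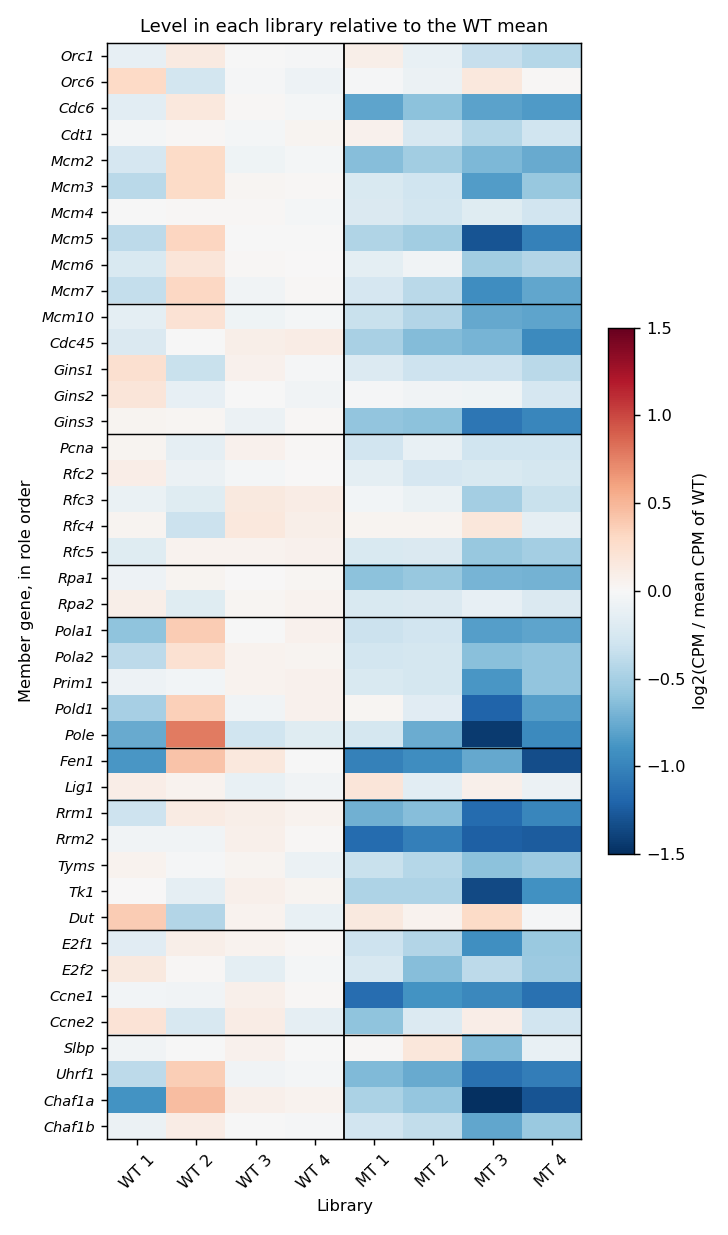
Rows are the 42 members in role order, columns are the 8 libraries, and colour is log2 of CPM over the WT mean, blue for lower. The MT columns are blue for most rows, most deeply in MT 3 and MT 4, and near white for *Lig1*, *Dut*, *Orc6* and *Rfc4*.

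Libraries also differed by exon length. Over all genes, the median log2 deviation from the mean of the 8 libraries in the shortest of 4 equal length classes of genes was 0.09, -0.31, -0.09 and -0.10 in WT 1 to WT 4 and 0.07, 0.05, 0.20 and 0.13 in MT 1 to MT 4. In the longest class it was -0.06, 0.26, 0.01 and 0.02 in WT 1 to WT 4 and -0.01, -0.07, -0.09 and -0.05 in MT 1 to MT 4. Short genes were thus above the mean in all 4 MT libraries and in WT 1, and below it in the other WT libraries. The median log2 fold change of all genes was 0.29 in the shortest class, 0.03 and -0.09 in the middle classes and -0.12 in the longest. Members had a median of 3930.5 exon bases against 3568 for all genes tested, and only 2 of the 42 were in the shortest class, so the shares over all genes include a class that the members nearly lack. In the shortest class, up to 2018 bases, 0 of 2 members were called lower, against 6.13% of all genes. In the middle classes 6 of 15 members (2019 to 3568 bases) and 9 of 17 members (3569 to 5839 bases) were called lower, against 15.0% and 19.6% of all genes of those lengths. In the longest class 4 of 8 members were, against 20.3%. With the trend on exon length removed from each library, 24 members were called lower, including all 19, and 17.2% of all genes. Across the 42 members the correlation of log2 fold change with log2 exon length was -0.22 and with GC content -0.19, as descriptions over genes that share the same libraries.

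The genes around the members were examined by lists written out in full, of which the values named are the 3 called genes with the largest differences. Of 43 other replication genes, which act in the same complexes or in fork protection and nucleotide synthesis, 19 were called lower and 1 higher (15.3% and 14.0% of all genes tested), the median log2 fold change being -0.29. The count lower was 8 without MT 4 and 10 without WT 3 or without WT 4, fits in which the share of all genes called lower was 8.53%, 9.2% and 8.89%. *Pold4*, the smallest subunit of polymerase delta, rose (log2 fold change 1.22, SE 0.21, adjusted p = 0.00317), *Chtf18*, of an alternative clamp loader, fell (log2 fold change -1.12, SE 0.37, adjusted p = 0.0437) and *Gart*, an enzyme of purine synthesis, fell (log2 fold change -1.11, SE 0.21, adjusted p = 0.00472). Of 27 G1/S regulators, 13 were called lower and 3 higher, with a median of -0.34. The D-type cyclins *Ccnd1* (log2 fold change -1.53, SE 0.36, adjusted p = 0.0113) and *Ccnd2* (log2 fold change -1.53, SE 0.17, adjusted p = 0.00037) and the repressive E2F factor *E2f8* (log2 fold change -1.49, SE 0.18, adjusted p = 0.000537) fell. *Ccnd2* was 969.5, 922, 709.8 and 777 CPM in WT 1 to WT 4 and 285, 239, 383 and 266 CPM in MT 1 to MT 4, so that no MT library came near a WT library. The 3 genes that rose, named after their values were seen, were *Cdkn1b*, an inhibitor of Cdk2 with cyclin E (log2 fold change 0.82, SE 0.14, adjusted p = 0.00312), *Rb1*, which holds E2F factors inactive (0.64), and *Myc*, a transcription factor of growth (0.74). Of 26 genes of G2 and mitosis, 17 were called lower and 0 higher in edgeR (0 also at an unadjusted p below 0.05), with a median of -0.57, and 9 were lower without MT 4, where 8.53% of all genes were. The kinesin *Kif20a* (log2 fold change -1.84, SE 0.46, adjusted p = 0.0154), the spindle checkpoint kinase *Bub1b* (log2 fold change -1.25, SE 0.24, adjusted p = 0.00475) and the kinetochore subunit *Nuf2* (log2 fold change -1.002, SE 0.20, adjusted p = 0.00528) had the largest differences there. *Ccnb1* was level with *Nuf2* at these digits (log2 fold change -1.002, SE 0.11, adjusted p = 0.000363).

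**Figure D5:**
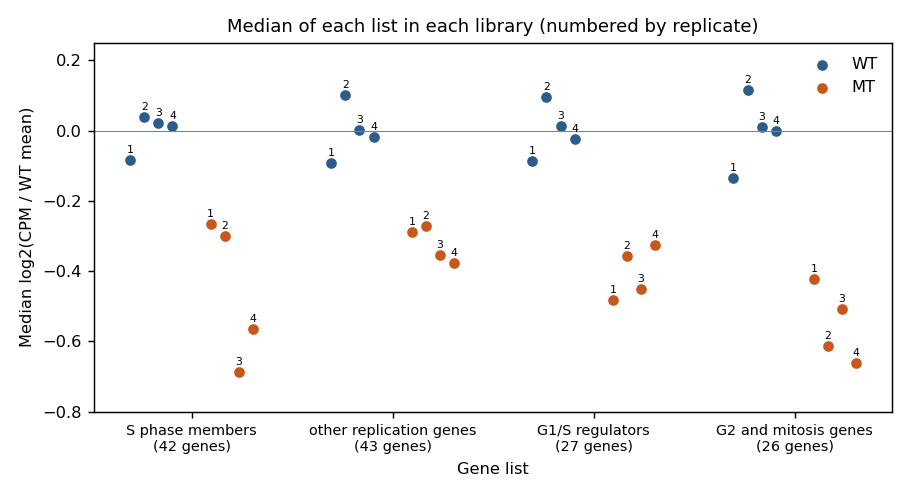
The vertical axis is the median log2 ratio of CPM to the WT mean over the genes of each list, 1 point per library with its replicate number, WT in blue and MT in orange. In all 4 lists the MT libraries lie below the WT libraries, and for the S phase members and the other replication genes MT 3 and MT 4 also lie below MT 1 and MT 2.

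Some markers of other cells moved with genotype too. All 8 erythroid genes were called lower, at a median log2 fold change of -2.11, and their summed level was 1858 to 4946 CPM in WT and 352 to 1099 CPM in MT. Each of the 8 was lowest in MT 3. Of 8 second heart field genes, 5 were called higher, with a summed level of 44.5 to 85.8 CPM in WT and 228 to 376 CPM in MT. Of 10 foregut epithelium genes, 5 were called higher, and the list summed to 189.7 to 295 CPM in WT and 656 to 892 CPM in MT, of which *Krt8* and *Krt18* made up the larger share. In WT 1 to WT 4, *Epcam* was 1.64, 15.3, 0.66 and 3.03 CPM and *Cldn6* 0.49, 20.8, 0.14 and 1.90 CPM. Of the 10 foregut genes, all but *Nkx2-1* were highest in WT 2 among the WT libraries. In MT 1 to MT 4, *Epcam* was 75.4, 67.2, 10.7 and 27.5 CPM and *Cldn6* 48.2, 41.6, 4.56 and 14.7 CPM. *Cdh1*, *Foxa1*, *Foxa2* and *Sox2* were also lower in MT 3 and MT 4 than in MT 1 and MT 2, as the members' medians were. *Shh*, *Nkx2-1*, *Krt8* and *Krt18* did not split in this way. Of the 8 endothelial and endocardial genes, 3 were called higher and 3 had a negative log2 fold change, with a median of 0.15. Of the 6 epicardial genes, 2 were called higher and 4 had a negative log2 fold change, with a median of -0.10. Over all genes tested, 14.0% were called higher. Of 6 neural tube genes tested, 1 was called lower and 2 higher, and *Sox1* and *Olig2* were at or near 0 in all libraries. Of 4 neural crest genes tested, 2 were called higher, and *Foxd3* and *Tfap2b* were at or near 0. The part of these cells in the lower level of the replication genes was not tested.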

How the data were processed

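RNA from whole hearts (4 WT and 4 MT libraries, poly-A selected, paired-end) was counted per Ensembl gene. The authors deposited raw counts, whole numbers that are not normalized, 1 table per library; the submitters' processing notes name Trimmomatic 0.36, STAR 2.5.2b and GRCm38 (mm10), and the counting tool and strand setting are not given in the sources used here. Symbols were matched through GENCODE M21. The total per library, 33359322 to 49523086, sets the counting error, and the lowest count of a member in any library was 170.

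Counts were tested in R 4.3.3 with edgeR 4.0.16 (filterByExpr, TMM, glmQLFit and glmQLFTest on a model of genotype alone). Benjamini-Hochberg adjustment ran over all 17163 genes, with calls made up to an adjusted p of 0.05. SEs are the absolute log2 fold change over the root of F. CPM use TMM-scaled library sizes, and levels per kilobase divide them by the deposited exon length, which covers all annotated exons of a gene. The edgeR, DESeq2, limma-voom and replicate block fits were also run on simulated counts. These counts had less spread between libraries than the data and no trend on exon length or GC content. They therefore do not check the fits under such spread or trends. Libraries of the same genotype were compared in pairs and gave a chi-square per degree of freedom of 11.1 to 234, above counting noise, so none was a duplicate.

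The members and lists were chosen with earlier results of these data known. All members are named; values in every library are given for the most negative and most positive member of each role, and from each of the 3 other cell cycle lists the 3 called genes with the largest difference are named. Marker lists are given by counts, some with summed levels or medians, and *Myh6* and the foregut genes were named after their values were seen. Alternatives were other scalings, filters, DESeq2 1.42.0, limma-voom 3.58.1, a fold threshold within the test, a replicate block, leaving out libraries and, chosen after seeing the data, corrections for exon length and GC content and leaving out WT 1 and MT 3 together. Promoters came from RefSeq on GRCm38.p6. Tables and plots were made with Python 3.11.15.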

Additional observations from a re-analysis of the deposited data

Results flagged for a closer look

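Dixon's gap test over the 84 groups of 4 libraries (42 members in 2 genotypes) marked 3 single libraries, where about 1 in 20 groups is marked by chance. *Pcna* in MT 2 was 241 CPM against 211 to 214 CPM in the other MT libraries (gap over range 0.906). *Rfc5* in WT 1 was 55.6 CPM against 65.0 to 65.7 CPM in the other WT libraries (0.925). *Rpa2* in MT 3 was 77.0 CPM against 71.5 to 71.9 CPM in the other MT libraries (0.928). Without WT 1, *Rfc5* had an adjusted p of 0.0206 in edgeR's quasi-likelihood test.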

How the results depend on the processing

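No member was called higher in any setting run, and the members' median log2 fold change stayed negative in all of them, from -0.54 without MT 1 to -0.38 without MT 3 when single libraries were left out, and at -0.38 with upper-quartile scaling. The count called lower, with the share of all genes called lower in the same fit, was 20 with RLE size factors (15.5%), 16 with upper-quartile scaling (11.6%), 18 by library size only (16.0%), 25 with DESeq2 (14.7%), 20 with limma-voom (15.3%), 19 with no filter (8.25%) and 25 with the GC content correction (18.5%). It was 2 (*Rrm2* and *Ccne1*) when the test itself required a log2 difference over 0.5 (glmTreat), as was the count at -0.5 or less, where 2.77% of all genes were called lower. The same test called lower 3 of the other replication genes, 2 of the G1/S regulators and 4 of the G2 and mitosis genes. For the members, leaving out single libraries gave 11 (without MT 4) to 24 (without WT 1) called lower and 9 to 21 at -0.5 or less. Without WT 1 and MT 3 together, 24 were called (18.6% of all genes). With a replicate block 16 were called lower (11.3% of all genes), all among the 19, and *Mcm7*, *Rfc5* and *Prim1* lost the call (adjusted p = 0.0587, 0.0848 and 0.0634). The labels of the genotypes share only numbers and give no pairing. Deviations of libraries with the same number correlated at -0.27, 0.34, 0.06 and 0.06 for numbers 1 to 4. These values cannot show whether libraries were paired, and the main fit used no pairing. Over the 840 refitted log2 fold changes of members, 732 kept their direction and call, 53 lost the call, 35 gained it and 20 changed sign. Gains were counted over the 10 alternatives that kept all 8 libraries and set no fold threshold within the test. *E2f2* and *Chaf1a* were called in 4 of these, *Mcm3*, *Mcm4* and *Pola2* in 3, and *Gins1*, *Pcna*, *Pold1*, *Pole* and *Ccne2* in 1.

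All sign changes were in members that were not called. *Orc6* was -0.0397 by library size only, -0.076 with the exon length and -0.034 with the GC correction, and -0.050 to 0.133 without single libraries. *Rfc4* was -0.028, -0.139 and -0.049 in the same 3 settings and -0.048 to 0.087 without single libraries. *Lig1* was -0.054 by library size only, -0.00433 with DESeq2, -0.00468 with no filter and -0.045 to 0.058 without single libraries. *Slbp* was 0.031 without WT 1 and MT 3 together and -0.220 to 0.039 without single libraries. *Tbx20* lost its call with upper-quartile scaling (-0.38), the exon length correction (-0.38) and glmTreat (-0.46), and in the fits without WT 3, WT 4, MT 1 or MT 2 (-0.46 to -0.36), where all 8 fits without a single library gave -0.55 to -0.36. The causes were not tested.

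Pools of 3 hearts, 4 per genotype, limit the precision, and the SEs of *Pole*, *Chaf1a* and *Pold1* (0.33, 0.34 and 0.27) are such that differences of the size seen in called members went uncalled in them. *E2f2*, *Fen1* and *Orc1* had the fewest counts of the members, 2689, 2923 and 3672 over the 8 libraries.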
